A study of Mus musculus with 2 samples.

Results

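Plasma cells, the antibody-secreting end stage of the B lineage, were examined in mouse bone marrow by droplet single-cell RNA sequencing, which counts unique molecular identifiers (UMIs) of transcript 3′ ends per barcode. A barcode was taken as a plasma cell when it had at least 1000 UMIs, under 10% mitochondrial UMIs, Jchain at 10 or more per 10000 UMIs, at least 3 UMIs summed over Mzb1, Derl3, Tnfrsf17 and Sdc1, 0 UMIs of Siglech, 0 UMIs of Ms4a1, and S100a8 and S100a9 together under 5% of its UMIs. The members were chosen by these measured values, so the levels of those genes are given as a description only. Of 23794 barcodes that passed the first 2 criteria, called kept barcodes below, 184 met the whole rule.

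The series asked how expression in marrow blood cells differs when MYC is overexpressed from hematopoietic stem cells. The control library (genotype Mx1Cre+/-;Rosa26+/+, titled WT) held 130 of the plasma cells and the library called MYC (genotype Mx1Cre+/-;Rosa26LSL-MYC/LSL-MYC) held 54. Both genotypes carry Mx1Cre, a Cre recombinase under the interferon-inducible Mx1 promoter, so the control differs from the other group in its Rosa26 alleles and not in Cre. LSL-MYC places a MYC transgene after a loxP-flanked stop sequence, so that it is transcribed once Cre has acted. The labels used here give neither the age and number of the animals nor the inducing treatment. With 1 library per group no test was possible and none was run: intervals are at 95% and cover counting error only, and genotype and library preparation cannot be told apart.

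A plasma cell forms when an activated B cell switches off its B cell programme and, under Irf4, Prdm1 and Xbp1, expands its endoplasmic reticulum (ER) to fold and export antibody. Each cell makes antibody of 1 heavy chain class and 1 light chain type; IgM and IgA are joined into polymers by the J chain, the product of Jchain. In the marrow, plasma cells are kept alive by stromal contact, by Cxcl12 acting on Cxcr4 and by ligands of the receptor BCMA, which Tnfrsf17 encodes. The transcription factor MYC drives ribosome production and growth in many cells, and Prdm1 is known to silence Myc as B cells become plasma cells.

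The antibody genes and regulators outside the rule matched the label. Immunoglobulin transcripts made up 6.12%, 39.7% and 63.0% of UMIs in the lowest, median and highest control plasma cell, and 15.2%, 38.02% and 64.0% in the MYC library, against medians of 0.129% and 0.0491% in other kept barcodes. Xbp1, the transcription factor of the secretory programme, had UMIs in every plasma cell of both libraries. In UMIs per 1000000 non-immunoglobulin UMIs (CPM, the scale used throughout) it stood at 1705 in control plasma cells and 1185 in those of the MYC library, against 113 and 94.0 CPM in other kept barcodes. Prdm1 stood at 183 and 139 CPM against 4.31 and 2.19 CPM in the other barcodes, and Irf4 at 174 and 259 CPM against 12.8 and 2.64 CPM. Mature B cell markers were present too: the 11 of them summed to medians of 3892 and 5520 CPM per plasma cell (lowest 469 and 694, highest 13431 and 21858), above the 1090 and 499.8 CPM of other kept barcodes. Most of that sum was Cd74, the invariant chain of MHC class II, at 3415 and 5560 CPM, followed by Cd79a at 410 and 257 CPM and Cd79b at 259 and 281 CPM, both of the B cell receptor. Cr2 (complement receptor) was at 0 in both libraries, as was Ms4a1 by the rule, and Fcer2a in the control and Cd22 in the MYC library were at 0 as well.

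Outside the rule's genes, the 15 genes that stood highest over other kept barcodes in both libraries mixed ER proteins with surface proteins and regulators. Fam214a led, at 705 CPM (control) and 691 CPM (MYC), or 46.2-fold and 91.1-fold the level of other barcodes. Txndc5, an ER disulfide isomerase, followed with 2234 and 1798 CPM (38.6-fold and 41.8-fold). The ER proteins Creld2, Pdia4, Herpud1, Txndc11 and Sel1l were between 11.2-fold and 17.7-fold higher in the control and between 13.2-fold and 27.8-fold in the MYC library. Pou2af1, the B lineage coactivator of octamer factors, was 16.5-fold and 85.1-fold higher, Slamf7, a surface receptor used as a plasma cell target, 18.1-fold and 79.2-fold, and Ly6a, which encodes Sca-1, 26.2-fold and 53.0-fold. Gm30211 (26.5-fold and 164-fold) is a long noncoding RNA gene at chr6:70719074-70740554 whose span holds Igkc (chr6:70726435-70726966) on the same strand of GRCm38, so its reads and those of the kappa chain may not be separable. These folds describe the cells the rule picked and were not tested.

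**Figure D1:**
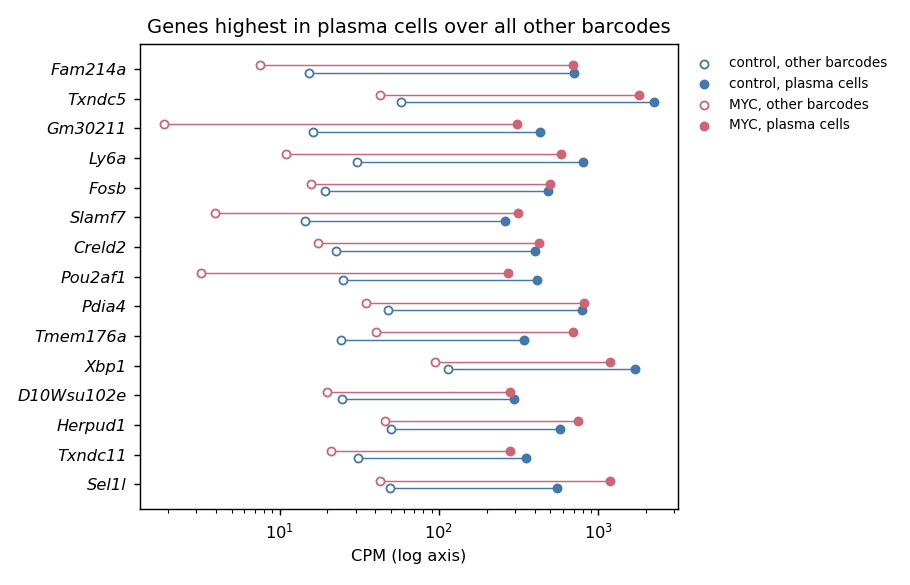
Levels of the 15 genes highest over other kept barcodes, with CPM on a log axis; filled points are plasma cells, open points all other kept barcodes, blue the control and red the MYC library. Every filled point lies at least 11.2-fold to the right of its open point, from Fam214a at the top to Sel1l at the bottom.

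Plasma cells were 0.981% of kept control barcodes (130 of 13251; 0.820% to 1.16%) and 0.512% of those of the MYC library (54 of 10543; 0.385% to 0.668%), a difference of -0.469 percentage points (-0.692 to -0.245). The lower share stood beside a lower share of B cells (Ms4a1 with Cd79a or Cd79b), 4.82% and 1.03%; the part of total marrow composition in either share was not tested. Failing the Jchain limit alone kept out 130 control and 6 MYC barcodes, and failing the Ms4a1 criterion alone 70 and 15. Of the latter, 39 and 10 had a single UMI, and their median immunoglobulin shares were 38.6% and 41.9%. With them the shares were 1.51% and 0.654%, and the difference widened to -0.855 points. Just inside the Jchain limit lay cells at 10.8 and 14.6 per 10000 UMIs in the control and 10.7 and 11.7 in the MYC library; just outside lay 9.80 and 9.75, and 7.15 and 3.88. The highest S100a8 and S100a9 shares inside were 4.03% and 2.12%, and the lowest outside 5.28% and 5.37%; 3 marker UMIs were held by 0 and 2 members and 2 UMIs by 4 and 1 barcodes just outside. The libraries shared 97 barcode sequences, 1 of which was a control plasma cell and none a plasma cell of the MYC library.

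The deposited libraries held 131884603 and 110012176 UMIs in 17073 and 14496 barcodes. Plasma cells were deep, with 1194, 21362.5 and 59854 UMIs in the lowest, median and highest control cell and 2347, 17589 and 54615 in the MYC library, against medians of 6631 and 7537 in other kept barcodes. The noncoding RNA Gm42418, whose locus (chr17:39846958-39848788) overlaps a ribosomal RNA repeat, took a median of 44.9% of non-immunoglobulin UMIs in control plasma cells and 20.02% in the MYC library, and 15.3% and 9.23% in other barcodes. Because it took so much, leaving it out of the denominator lowered the log2 ratio of every other gene by 0.50, and with it the median of all tested genes to -0.50. A gene's log2 ratio between the plasma cells of the libraries that is given below as positive but under 0.50 therefore lay below 0 on that scaling, and the counts and directions it changed are given beside each gene list.

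Antibody genes were compared first, because the rule used none of them but Jchain. Failing the Jchain limit alone kept out 130 control and 6 MYC barcodes, and the part of that limit in the class shares was not tested. All immunoglobulin genes held 38.5% of plasma cell UMIs in each library. IgM was the leading class in both: 90 of 130 control cells (69.2%, 60.5% to 77.0%) and 37 of 54 MYC cells (68.5%, 54.4% to 80.5%) had at least 80% of their heavy chain UMIs from Ighm, a difference of -0.712 points (-16.8 to 14.1). IgG cells were 38 (29.2%) and 14 (25.9%), a difference of -3.30 points (-17.3 to 12.4), and IgA cells 2 and 3. No cell was left without a class.

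Within IgG the subclasses differed. Ighg1 led in 2 control cells (1.54%) and 7 of the MYC library (12.96%), a difference of 11.4 points (2.89 to 23.4), and took 0.202% and 1.75% of all plasma cell UMIs. Ighg2b led in 23 control cells (17.7%) and 5 of the MYC library (9.26%), with an interval of the difference from -18.3 to 4.20 points. Ighg3 led in 9 control cells (6.92%) and in 0 of 54 cells of the MYC library, which allows a share of up to 5.56% by 3 counts (6.60% by the exact interval used for the difference and in the plot); the interval of that difference, -12.7 to 0.650 points, included 0. Ighg3 itself had 23482 UMIs over the control plasma cells and 3 over those of the MYC library. Ighg2c led in 4 and 2 cells, and Ighd and Ighe in none. As these counts are of cells from 1 marrow preparation per group, and cells of 1 clone can share a class, they describe these libraries.

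**Figure D2:**
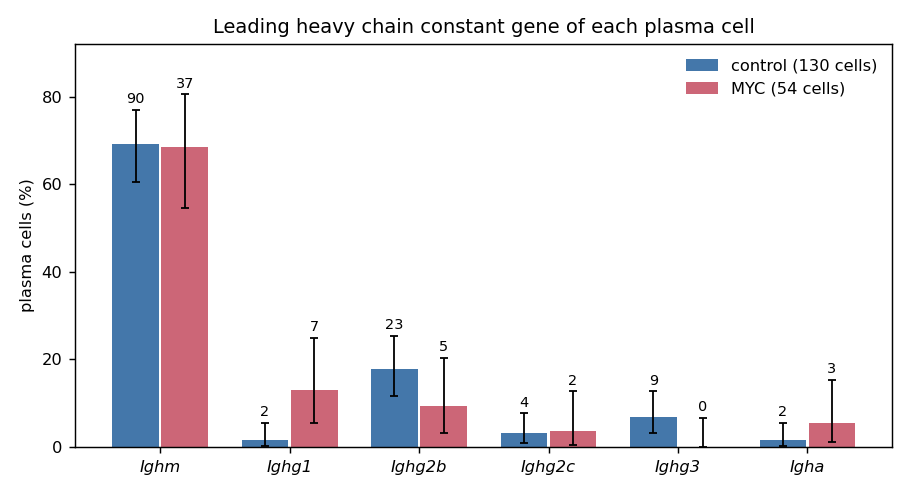
Share of plasma cells (%) by leading heavy chain constant gene, blue for the control (130 cells) and red for the MYC library (54 cells); bars are shares, whiskers exact 95% intervals and numbers above them cell counts. Ighm leads in 90 and 37 cells, Ighg1 in 2 and 7, and Ighg3 in 9 and 0.

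Kappa light chains, encoded by Igkc, were used by 123 control cells (94.6%) and 52 MYC cells (96.3%), and lambda by 6 and 2. Among lambda genes Iglc1 held 0.171% and 1.62% of all plasma cell UMIs and Iglc2 0.782% and 0.159%. Jchain, a rule gene, stood at medians of 226 and 89.0 per 10000 UMIs, with ranges of 10.8 to 699 and 10.7 to 506 that overlapped almost fully.

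Variable (V) gene segments, which differ between B cell clones, gave few UMIs because the kit reads the 3′ end: heavy chain V genes took 0.106% and 0.108% of plasma cell UMIs. A V gene was called where it held at least 5 UMIs and 80% of a chain's V UMIs in a cell, which succeeded for the heavy chain in 87 and 47 cells, for the light chain in 96 and 35, and for both chains in 63 and 31. The pair met most often in the control was Ighv1-22 with Igkv12-46, 7 of 63 cells and all of the Ighm class. In the MYC library the leading pairs were Ighv1-15 with Igkv12-44 and Ighv1-76 with Igkv10-96, each 4 of 31 cells and again Ighm. Igkv12-46 and Igkv12-44, which marked different leading pairs in the 2 libraries, are near copies. The last 290 coding bases of the leading control pair and of the light chain gene of the first MYC pair follow, as germline sequence from GENCODE vM21 gene models on GRCm38, minus strand. Capitals mark bases that differ from the nearest other V gene (Ighv1-26 for Ighv1-22, 12 of 351 coding bases; Igkv12-44 for Igkv12-46, 16 of 347; Igkv12-41 for Igkv12-44, 15 of 347).
Ighv1-22 (chr12:114746273-114746562): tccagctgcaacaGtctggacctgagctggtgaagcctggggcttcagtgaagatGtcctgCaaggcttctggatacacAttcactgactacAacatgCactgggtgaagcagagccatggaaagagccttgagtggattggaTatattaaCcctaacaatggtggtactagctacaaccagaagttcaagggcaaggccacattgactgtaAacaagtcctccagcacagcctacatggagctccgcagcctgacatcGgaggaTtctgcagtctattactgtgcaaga
Igkv12-46 (chr6:69764523-69764812): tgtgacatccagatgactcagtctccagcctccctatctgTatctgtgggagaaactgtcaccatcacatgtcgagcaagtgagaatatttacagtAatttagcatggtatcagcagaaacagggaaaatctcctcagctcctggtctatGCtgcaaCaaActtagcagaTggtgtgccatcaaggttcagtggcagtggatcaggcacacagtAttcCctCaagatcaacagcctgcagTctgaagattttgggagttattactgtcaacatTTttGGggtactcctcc
Igkv12-44 (chr6:69814631-69814920): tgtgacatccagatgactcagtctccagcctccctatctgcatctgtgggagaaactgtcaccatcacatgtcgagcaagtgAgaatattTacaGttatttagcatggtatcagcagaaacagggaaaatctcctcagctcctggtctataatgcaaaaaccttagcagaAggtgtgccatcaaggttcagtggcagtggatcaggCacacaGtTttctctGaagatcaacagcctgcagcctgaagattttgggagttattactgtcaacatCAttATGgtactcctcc
With 95.4% identity between the kappa genes shown, a short or mutated read can be counted to the wrong copy, and V calls among such neighbours are uncertain.

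The repertoires were broad in both libraries. The 63 control cells with both chains held 33 distinct pairs and the 31 of the MYC library 23, and the largest pair made up 11.1% and 12.9%. Ighv1-9 was carried by 15 control cells, 4 of IgM and 11 of IgG, and its pairing with Igkv1-122 and Ighg2b by 5 cells. Igkv5-39 was the most frequent control light chain, in 21 of 96 cells, 20 of them IgM. Pooled over those cells, Ighv1-53 held 315 of 525 heavy V UMIs (60%) among 11 V genes. Neither whether these single cells shared a heavy chain nor how many of them were among the pairs was tested. By contrast all 64 heavy V UMIs of the 4 MYC cells with Igkv10-96 came from Ighv1-76. In the MYC library Ighv8-8 was the most frequent heavy V gene, with 8 of 47 cells, 3 of IgM and 5 of IgG.

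Dividing cells, as plasmablasts would be, were counted at a planned limit and at a stricter one added later. At the added limit, 5 control cells (3.85%) and 2 of the MYC library (3.70%) had 50 or more UMIs over 28 cell cycle genes: 287, 236, 231, 137 and 77 in the control, with the next cell at 21, and 191 and 144 in the MYC library, with the next at 19. They belonged to IgM, IgG and, in the control, IgA. Mki67, the proliferation antigen, had 46, 52, 45, 69 and 2 UMIs in the control cells of that set and 49 and 14 in those of the MYC library. At the planned limit, with each cell thinned to 3000 UMIs, at least 2 such UMIs were found in 24 of 128 control cells (18.8%) and 9 of 53 of the MYC library (17.0%). The difference was -1.77 points (-13.6 to 12.5). Unthinned, the shares were 83.1% and 70.4%.

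Over all other genes, 3900 had at least 50 UMIs in at least 10 plasma cells. A gene was called when its CPM ratio between libraries was at least 2 and the interval excluded 1. In the MYC library 380 genes were called higher (9.74%) and 286 lower (7.33%), and the median log2 ratio was -0.00195. With Gm42418 left out of the denominator 117 genes were called higher (3%) and 907 lower (23.3%). Counts of called list members below are to be read against these shares, each on its own scaling. The genes named next were the extremes of this comparison, so their size is a description.

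Surface protein genes stood at the top of the genes higher in the MYC library. Slamf9, a member of the SLAM receptor family (chr1:172475358-172478575), had 20 UMIs over the 130 control cells and 196 over the 54 of the MYC library, 12.6 and 306 CPM, a log2 ratio of 4.60 (3.94 to 5.35). Epcam, an adhesion molecule best known from epithelia (chr17:87635979-87651129), stood at 42.7 and 343 CPM (3.01; 2.61 to 3.42). Ly6c2 (chr15:75108158-75111970), part of the Ly6C antigen, stood at 570 and 4370 CPM (2.94; 2.83 to 3.05), and Ly6d (chr15:74762056-74763620), a lymphoid surface antigen of the same family, at 256 and 1945 CPM (2.92; 2.76 to 3.09). Ly6c2 has a close copy, Ly6c1, with which reads may be shared. Without Gm42418 in the denominator these ratios were 4.10, 2.50, 2.44 and 2.42. B cells were set beside them as 610 control and 104 MYC barcodes with at least 2 Ms4a1 and 3 Cd79a or Cd79b UMIs, leaving out 29 and 5 that met the plasma cell rule but for Ms4a1. In these B cells the ratios had the same direction: 1.65 (0.72 to 2.53) for Slamf9, at 7.78 and 24.5 CPM, 4.05 (3.01 to 5.20) for Epcam, at 2.52 and 41.7 CPM, 1.77 (1.61 to 1.93) for Ly6c2, at 204 and 696 CPM, and 0.74 (0.62 to 0.85) for Ly6d, at 695 and 1158 CPM. Whether the ratios of plasma cells and B cells differ was not tested.

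The difference was visible cell by cell. Ly6c2 had a lowest, median and highest level of 0, 129 and 5859 CPM in control cells and 0, 2012 and 19759 CPM in the MYC library; 15 of the 54 cells exceeded the highest control cell. For Ly6d these levels were 0, 90.5 and 1569 CPM against 0, 1195 and 6619 CPM, with 18 cells above the highest control cell. Epcam had medians of 0 and 273 CPM with 9 cells above, and Slamf9 medians of 0 and 93.9 CPM with 18 cells above. The cells of the libraries overlapped for each of these genes, since the MYC library also held cells at 0.

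All 4 genes were found together in 2 of 130 control cells (1.54%) and in 25 of 54 of the MYC library (46.3%), and none of them in 15 and 0 cells. At a fixed 3000 UMIs per cell, 3 or more of the 4 were found in 2 of 128 control cells (1.56% with 3 and 0 with 4), against 39.6% with 3 and 9.43% with 4 in the 53 cells of the MYC library. In neutrophil barcodes, taken as a measure of free RNA, Slamf9 was found in 0.556% and 0.630%, Epcam in 0.108% and 0.236% and Ly6d in 4.45% and 2.98% (median depths of 5428 and 6743 UMIs), against 13.1% and 57.4%, 25.4% and 75.9%, and 57.7% and 96.3% of plasma cells. Thinned to 3000 UMIs, plasma cells had shares of 2.34% and 28.3% for Slamf9, 5.47% and 39.6% for Epcam and 29.7% and 75.5% for Ly6d, against 0.285% and 0.225%, 0.0503% and 0.113%, and 2.62% and 1.39% of neutrophil barcodes. Ly6c2 was found in 85.2% and 89.2% of neutrophil barcodes, so for this gene they are no measure of free RNA. A low Ly6c2 level in a plasma cell therefore cannot be told from free RNA. At 3000 UMIs per cell Ly6c2 was found in 34.4% of control plasma cells and 81.1% of those of the MYC library. Neutrophil marker genes summed to medians of 3803 and 4786 CPM per plasma cell (lowest 1759 and 2193, highest 73136 and 41457), and the part of that RNA in the Ly6c2 difference was not tested.

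**Figure D3:**
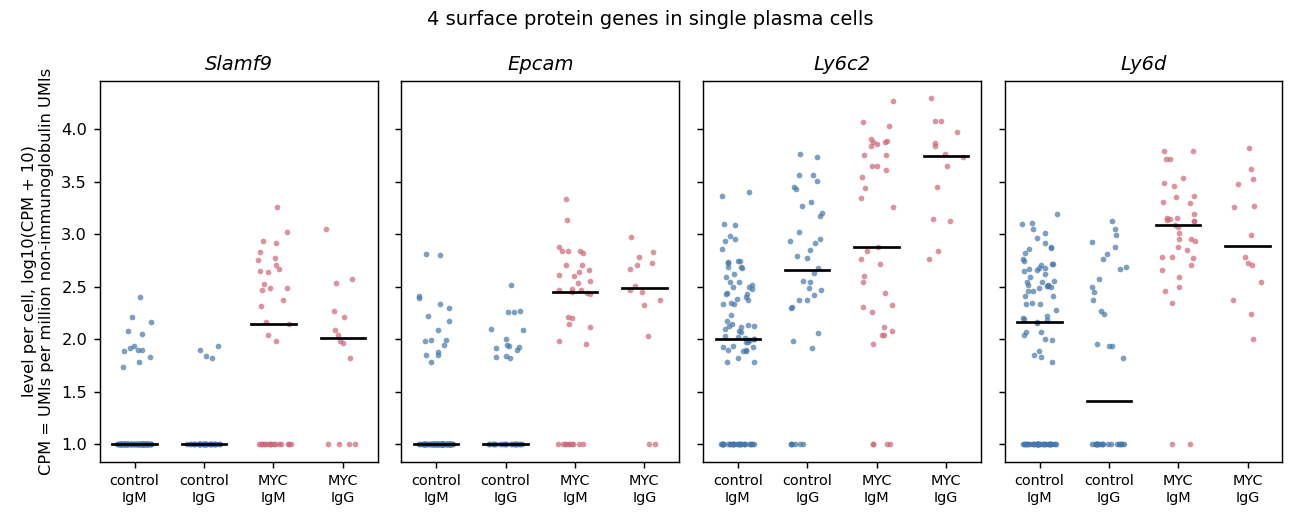
Levels of Slamf9, Epcam, Ly6c2 and Ly6d in single plasma cells by library and antibody class, as log10(CPM + 10); each point is a cell, black bars are medians, blue is the control and red the MYC library. Within IgM and within IgG, the classes drawn, the MYC group has the higher median for every gene; over all cells of a library the medians are 93.9, 273, 2012 and 1195 CPM against 0, 0, 129 and 90.5 CPM.

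The ratios had the same direction in both main antibody classes. The MYC library held 14 IgG cells, under the 20 cells planned as a minimum for comparing classes, and their subclasses differed from the control as given above. Ratios of IgG cells, here and below, are therefore a description. In IgM cells and IgG cells the log2 ratios were 4.58 and 4.74 for Slamf9, 3.14 and 2.83 for Epcam, and 2.80 and 3.07 for Ly6d. Ly6c2 differed more between classes: it stood at 236 and 3609 CPM in IgM cells of the control and the MYC library (3.93) and at 1226 and 6652 CPM in IgG cells (2.44). Across single cells, Epcam and Ly6c2 levels had a Spearman rho of 0.80 over the 54 cells of the MYC library and 0.23 over the 130 control cells; these cells share a library, and depth had rho of 0.22 and 0.25 with the 2 genes in the MYC library.

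Of the 13 tested genes in the list of plasma cell surface proteins, 4 were called higher and 1 lower, with a list median of -0.03 (4 and 3, and -0.52, without Gm42418 in the denominator). The shares over all tested genes were 9.74% and 7.33% (3% and 23.3% without Gm42418). The fourth gene called higher beside Epcam, Ly6c2 and Ly6d was Ly6k, of the same family, at 139 and 633 CPM (2.19; 1.95 to 2.43). It was found in 23.1% of control cells and 20.4% of cells in the MYC library, and a single cell held 21.3% and 30.5% of its UMIs, so its ratio rests on few cells. In IgM cells it stood at 98.7 and 894 CPM (3.18), but in IgG cells the control had 106 UMIs and the MYC library 0, so the direction was the opposite there. Cd24a, a mucin-like antigen of B cell stages, was called lower, at 240 and 98.3 CPM (-1.29), but in IgM cells it had -0.64 (-1.11 to -0.20), short of 2-fold, and in IgG cells -2.88. Ly6a was not called, at 802 and 583 CPM (-0.46), nor was Slamf7, at 259 and 314 CPM (0.27, turning to -0.23 without Gm42418 in the denominator). Cd27 had 21 UMIs over control cells against 0, and Cd38 34 against 3, both under the 50 UMIs needed to be tested.

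Of 14 tested niche and homing genes, 2 were called in each direction, numbers near the background of 9.74% higher and 7.33% lower, and the list median was -0.35. Cxcr4, the receptor of the stromal chemokine Cxcl12, stood at 69.7 and 28.1 CPM (-1.31; -2.12 to -0.59), and Il6st, the signalling chain of the IL-6 receptor, at 47.1 and 21.8 CPM (-1.11). Itgb7, an integrin chain of mucosal homing, stood at 25.1 and 56.2 CPM (1.16), and Klf2, a transcription factor that controls lymphocyte trafficking, at 77.3 and 162 CPM (1.07). Without Gm42418 in the denominator 0 were called higher and 4 lower (median -0.85), against 3% and 23.3% of all tested genes. Itgb7 and Klf2 were then at 0.66 and 0.57. Tnfrsf13b, which encodes the receptor TACI, stood at 242 and 176 CPM (-0.46), and Itga4, the alpha 4 integrin chain, at 138 and 123 CPM (-0.16). Of 4 tested survival and death genes 1 was called in each direction (median 0.34 over the 9 members with at least 20 UMIs, turning to -0.16 without Gm42418). Bax, a pro-apoptotic BCL2 family member, was higher at 42.7 and 142 CPM (1.73; 1.26 to 2.21), and Bcl2, its anti-apoptotic relative, lower at 91.7 and 42.1 CPM (-1.12; -1.77 to -0.52). The other 2, the anti-apoptotic Mcl1 and the pro-apoptotic Bcl2l11, were not called, at 0.34, below 0 without Gm42418, and -0.07.

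None of the 10 transcription factors of the plasma cell programme was called higher and 3 were called lower, against 7.33% lower over all tested genes. The list median was -0.56. When Gm42418 was left out of the denominator 6 were called lower, Xbp1, Pou2af1 and Mef2c in addition, with a median of -1.06. On that scaling 23.3% of all tested genes were called lower. The 3 called on both scales were Ikzf3, which encodes Aiolos, at 76.0 and 31.2 CPM (-1.29), Ell2, an elongation factor that directs secreted immunoglobulin mRNA, at 308 and 143 CPM (-1.10; -1.44 to -0.78), and Creb3l2, an ER-anchored factor of the secretory pathway, at 180 and 88.9 CPM (-1.02). Cell by cell, Ell2 had a lowest, median and highest level of 0, 296 and 1105 CPM in the control and 0, 125 and 860 CPM in the MYC library. Ell2 and Creb3l2 had ratios of -1.68 and -0.61 in other kept barcodes. Xbp1 (-0.52), Prdm1 (-0.40) and Pou2af1 (-0.59) did not reach a 2-fold difference with Gm42418 kept in. By class, Pou2af1 had -0.99 (-1.29 to -0.69) in IgM cells and 0.50 (-0.03 to 1.01) in IgG cells. Irf4 had the only positive ratio of the list, 0.57 (0.29 to 0.86), or 0.07 (-0.22 to 0.35) without Gm42418.

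ER folding genes, the bulk of the secretory machinery, lay close to the median of all genes. Of 34 tested, 3 were called higher and 0 lower, against 9.74% and 7.33% of all tested genes, with a list median of 0.29. When Gm42418 was left out of the denominator the median turned to -0.21. Then 0 were called higher and 6 lower, against 3% and 23.3% of all genes. Sel1l, the scaffold of ER-associated degradation, stood at 554 and 1182 CPM (1.09; 0.95 to 1.24), Fkbp11, an ER prolyl isomerase, at 161 and 412 CPM (1.35), and Ppib, another, at 378 and 887.5 CPM (1.23). Neither Fkbp11 nor Ppib was called without Gm42418 in the denominator, and both had smaller ratios in IgG cells (0.35, -0.12 to 0.80, and 0.67) than in IgM cells (1.83 and 1.58), a difference that was not tested. Among the chaperones, 2 abundant ones were below 0. Hsp90b1, the ER HSP90, stood at 4459 and 2701 CPM (-0.72; -0.80 to -0.65) and Hspa5, the ER HSP70 also called BiP, at 1857 and 1254 CPM (-0.57; -0.68 to -0.45), and neither reached 2-fold with Gm42418 kept in, whereas both did without it. The cells overlapped: Hspa5 levels were 127, 1250 and 29684 CPM in the lowest, median and highest control cell and 0, 904 and 9897 CPM in the MYC library, and 1 control cell held 16.2% of all its UMIs. In IgG cells the Hspa5 ratio was -1.03 and in IgM cells -0.36. The highest control cell, at 29684 CPM, was an IgG cell, and the class ratio was not computed without it.

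The promoters of these chaperones were searched for the ER stress response element, which is bound by NF-Y with ATF6 or XBP1. The motif, CCAAT and CCACG with 9 bases of any kind between them, was sought on both strands of RefSeq windows from 250 bases before to 50 after the gene start, on GRCm38.p6. It was found in 39 of 32851 windows (0.119%) and in 8 of the 30 ER folding genes with a window (26.7%): Calr, Canx, Creld2, Dnajc3, Hsp90b1, Hspa5, Pdia6 and Syvn1. Hspa5 (chr2:34771840-34772139, plus strand) and Hsp90b1 (chr10:86705395-86705694, minus strand) are shown as the most abundant of them, with the element in capitals.
Hspa5: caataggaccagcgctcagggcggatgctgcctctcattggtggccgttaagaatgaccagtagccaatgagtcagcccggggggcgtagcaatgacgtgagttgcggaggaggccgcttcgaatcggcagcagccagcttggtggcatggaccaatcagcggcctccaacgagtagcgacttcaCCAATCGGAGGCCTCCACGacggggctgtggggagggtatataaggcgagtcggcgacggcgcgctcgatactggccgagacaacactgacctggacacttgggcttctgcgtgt
Hsp90b1: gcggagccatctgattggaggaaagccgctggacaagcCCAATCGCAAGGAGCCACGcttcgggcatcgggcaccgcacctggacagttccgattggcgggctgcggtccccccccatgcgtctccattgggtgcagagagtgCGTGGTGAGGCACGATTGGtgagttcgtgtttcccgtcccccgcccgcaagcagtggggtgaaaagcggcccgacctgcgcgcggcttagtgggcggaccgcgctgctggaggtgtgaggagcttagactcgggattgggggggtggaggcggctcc
Hspa5 holds 1 copy and Hsp90b1 2, the second of them reversed. Among the 8 genes the log2 ratios were -0.24 for Calr, -0.51 for Canx, 0.07 for Creld2, 0.28 for Dnajc3, -0.72 for Hsp90b1, -0.57 for Hspa5, 0.54 for Pdia6 and -0.61 for Syvn1, so the genes with the element lay on both sides of 0 and none was called. Creld2 had opposite signs by class, 0.54 (0.29 to 0.79) in IgM cells and -1.14 (-1.60 to -0.70) in IgG cells. Without Gm42418 in the denominator Canx, Hsp90b1, Hspa5 and Syvn1 were called lower, Creld2 and Dnajc3 turned to -0.43 and -0.22, and Pdia6 was at 0.04. The other tested element, TGACGTGG, the core of the unfolded protein response element, was sought on both strands and found in 222 windows (0.676%), in 2 of 30 ER folding genes (6.67%; Txndc5 and Txndc11) and in 4 of 21 ER to Golgi genes (19.0%; Copb1, Copb2, Kdelr3 and Sec24d). A match describes the sequence and not binding.

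Genes of translocation into the ER and of transport onward to the Golgi were read against the 9.74% called higher and 7.33% called lower of all tested genes. On the scaling without Gm42418 those background shares were 3% and 23.3%. Of 30 translocation and glycosylation genes 1 was called higher and 0 lower (median 0.29, turning to -0.21 without Gm42418 in the denominator, with 1 higher and 4 lower). It was Ssr4, a subunit of the translocon-associated complex, at 1072 and 3063 CPM (1.51; 1.42 to 1.61). Of 26 ER to Golgi genes 2 were called in each direction (median 0.11, turning to -0.38 without Gm42418, with 0 higher and 7 lower), a share near the background: Tmed10, a cargo receptor, at 1.03 and Trappc1, a tethering subunit, at 1.06, against the COPII coat gene Sec24d at -1.06 and the exit site scaffold Sec16a at -1.09. The glycan enzymes among the largest decreases were Golgi-resident: St6gal1, the sialyltransferase that caps N-glycans, at 261 and 96.7 CPM (-1.43; -1.84 to -1.05), and Man1a, a mannosidase, at 379 and 148 CPM (-1.36). Their ratios in other kept barcodes were -2.16 and -1.15. St6gal1 had a median of 223 CPM over control cells and 0 over those of the MYC library, with highest cells at 1471 and 560 CPM, and Man1a medians of 373 and 75.2 CPM. At 3000 UMIs per cell St6gal1 was found in 39.8% and 15.1% of plasma cells, against 0.620% and 0.169% of neutrophil barcodes (85.4% and 48.1%, and 1.56% and 0.362%, unthinned).

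Several genes of amino acid supply and of the stress factors ATF4 and CHOP were called higher in the MYC library. Of 6 tested genes of the ATF4 and CHOP list 3 were called higher and 0 lower, against 9.74% and 7.33% of all tested genes. The median was 1.49 over the 9 members with at least 20 UMIs (1.04 without Gm42418 in the denominator, with the same number called). Phgdh, the first enzyme of serine synthesis, stood at 152 and 537 CPM (1.82; 1.58 to 2.06), with lowest, median and highest cells at 0, 136 and 1585 CPM and 0, 500 and 2086 CPM. Asns, asparagine synthetase, stood at 57.8 and 193 CPM (1.74) and Chac1, a glutathione-degrading enzyme, at 13.8 and 71.7 CPM (2.38; 1.61 to 3.18). The factors themselves were not called, Atf4 at 0.37 and Ddit3, which encodes CHOP, at 0.40, and both turned, to -0.14 and -0.10, without Gm42418. Of 6 tested genes of amino acid transport and metabolism 2 were called higher and 0 lower (median 0.30), and none was called without Gm42418 in the denominator (median -0.20). The 2 were the subunits of the large amino acid transporter, Slc7a5 at 61.0 and 145 CPM (1.25) and Slc3a2 at 659 and 1482 CPM (1.17). In other kept barcodes Phgdh and Asns had ratios of 0.73 and 0.57.

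Ribosomal protein genes were mostly called higher. Of 80 tested ribosomal protein genes 69 were called higher and 0 lower, with a median log2 ratio of 1.51 in plasma cells and 0.64 in other kept barcodes; that difference was not tested. Rps18 stood at 880 and 5487 CPM (2.64; 2.55 to 2.73) and Rpl32 at 1375 and 6084 CPM (2.14). These 2 genes had ratios of 1.25 and 1.10 in other kept barcodes. In all B cells (639 and 109 barcodes) the ratios were 1.87 and 1.65. Without Gm42418 in the denominator the median was 1.004 and 41 were called. The share called higher over all tested genes was 9.74%, or 3% without Gm42418. Many ribosomal protein genes have near-identical processed copies, so single members are uncertain. Among the extremes of the whole comparison were 3 genes that act in translation: Eif4ebp1, a repressor of cap-dependent initiation, at 37.1 and 245 CPM (2.72; 2.28 to 3.18), Eef1b2 at 2.21 and Eif3i at 1.75.

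Of 43 tested MYC-induced genes 13 were called higher and 1 lower (30.2% and 2.33% of them; median 0.49), but without Gm42418 in the denominator 3 were called in each direction and the median was 0.00127. The called members included Mrto4, a ribosome assembly factor, at 2.52, C1qbp, a mitochondrial protein, at 1.91, Nme2, a nucleoside diphosphate kinase, at 1.59, Srm, spermidine synthase, at 1.46, and the cyclin Ccnd2, at 1.24. Other textbook targets were not called: Ncl, nucleolin, had 0.37, Npm1 0.85, Odc1 -0.30 and Ldha 0.25, with Ncl and Ldha turning to -0.13 and -0.25 without Gm42418. Pcna, the replication clamp, was called lower at -1.18, with -0.65 (-1.55 to 0.16) in IgM cells and -2.04 in IgG cells, where the control had 2 of its 5 dividing cells and the MYC library 1 of 2. For oxidative phosphorylation 9 of 60 genes were called higher, none lower (median 0.56, or 0.0628 without Gm42418, with 0 called in either direction). Beside both lists, 9.74% of all tested genes were called higher and 7.33% lower (3% and 23.3% without Gm42418).

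**Figure D4:**
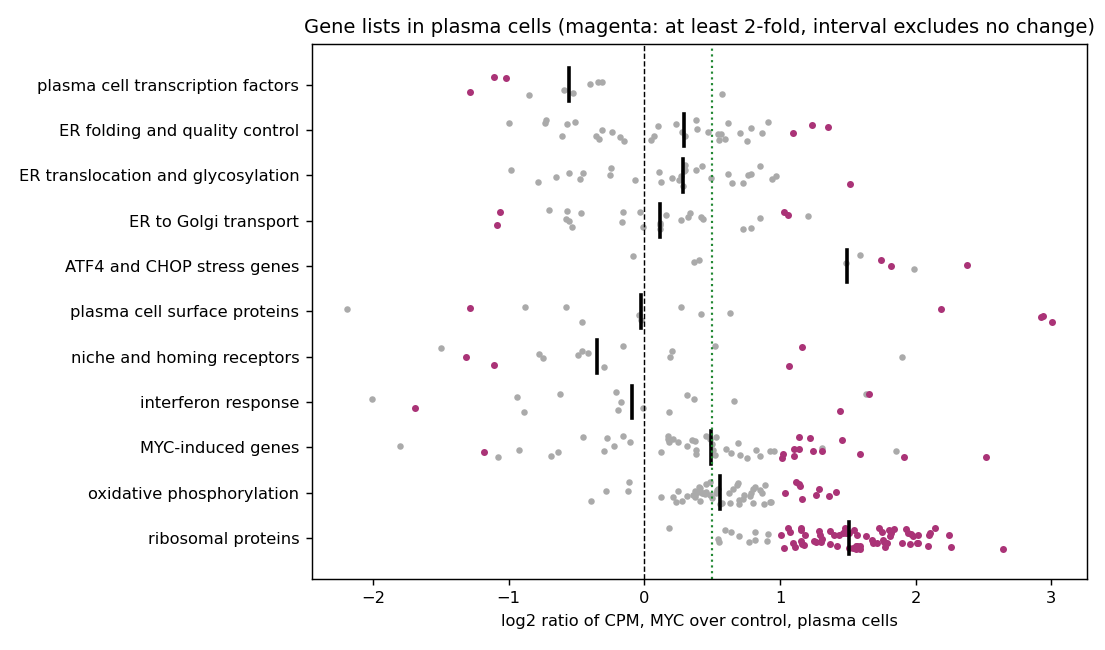
Log2 ratios (MYC over control, plasma cells) of genes with at least 20 UMIs in 11 gene lists; points are genes, magenta those called at 2-fold, black bars list medians, the dashed line the median of all 3900 tested genes (-0.00195) and the green dotted line where no difference lies when Gm42418 is left out of the denominator. The median of ribosomal protein genes lies right of both lines (1.51) and that of the plasma cell transcription factors left of them (-0.56), although Irf4 lies to the right. Cd27, with 0 UMIs in the MYC library, is not drawn.

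The ribosomal protein share split the plasma cells of the MYC library into ranges. It was 1.88%, 8.29% and 24.7% of non-immunoglobulin UMIs in the lowest, median and highest control cell, and 2.94%, 25.5% and 43.9% in the MYC library. Below 15%, a limit set after the values were seen, lay 124 of 130 control cells (95.4%) but 21 of 54 MYC cells; the other 33 (61.1%) began at 19.4%, with no cell between 14.3% and that value. The low range of the MYC library was shallower, with a median of 9041 UMIs against 24229 in the high range, and richer in Gm42418, with 28.9% against 16.2%. Across cells the share had a Spearman rho of 0.70 with UMIs and -0.70 with Gm42418 in the MYC library, and 0.33 and -0.38 in the control, over 54 and 130 cells that share a library; the part of depth and Gm42418 in the ribosomal difference was not tested.

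The surface genes were high in both ranges of the MYC library. Ly6c2 stood at 5054 CPM in cells with a low ribosomal share and 4205 CPM in those with a high one, Epcam at 401 and 329 CPM, Ly6d at 1219 and 2120 CPM and Phgdh at 457 and 556 CPM. In control cells below 15% the same genes stood at 511, 46.5, 257 and 155 CPM. Slamf9 differed most between the ranges, at 88.3 and 358 CPM, against 12.3 CPM in the control cells below 15%. The Golgi glycan enzymes had smaller differences between cells of the low range, with intervals that included 0. St6gal1 stood at 268 CPM in control cells below 15% and 176.5 CPM in those of the MYC library (-0.60; -1.29 to 0.02), against 77.4 CPM in the high range. Man1a stood at 395 and 305 CPM (-0.37; -0.89 to 0.10), against 110 CPM in the high range. Ell2 stood at 319 and 136 CPM (-1.22; -2.02 to -0.53). The low range held 13 IgM and 6 IgG cells and the high range 24 and 8.

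**Figure D5:**
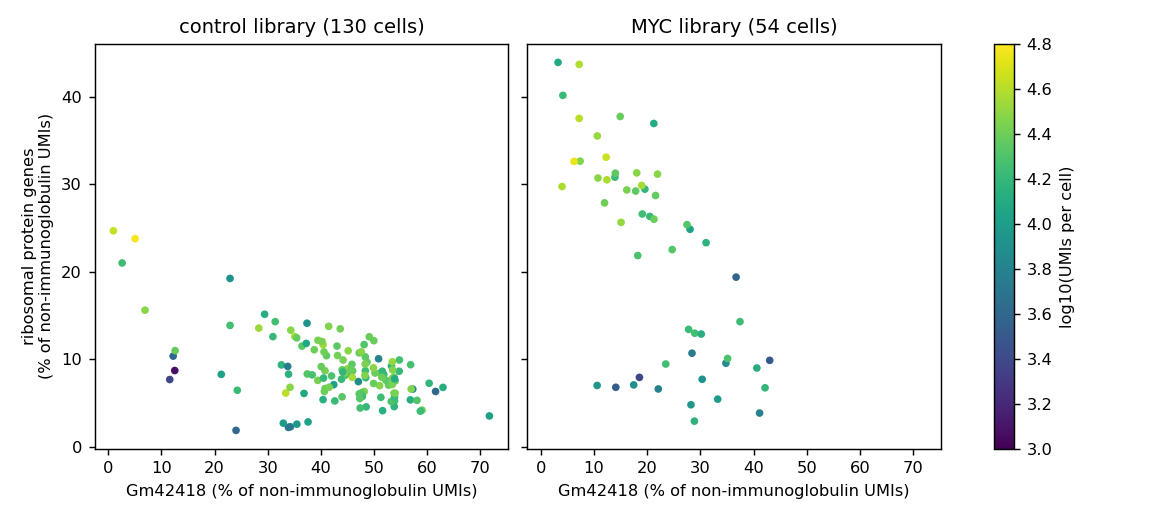
Ribosomal protein share against Gm42418 share, both in % of non-immunoglobulin UMIs, for each plasma cell; colour is log10 UMIs per cell. Control cells (130) gather at a median ribosomal share of 8.29% and Gm42418 share of 44.9%, while cells of the MYC library (54) reach 25.5% and 20.02%.

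Other lists showed smaller numbers of calls. Of 9 tested interferon response genes 2 were called higher and 1 lower (median -0.09): Bst2, a virus-tethering membrane protein, at 109 and 345 CPM (1.66), the nucleic acid sensor Zbp1 at 64.7 and 176 CPM (1.45), and Trim30a at -1.69. Leaving Gm42418 out of the denominator gave 1 called higher, Bst2, and 2 lower (median -0.58). All tested genes had 9.74% called higher and 7.33% lower, or 3% and 23.3% on that scaling. Basp1, a membrane-associated corepressor, stood at 44.6 and 251 CPM (2.49), Emp3, a membrane glycoprotein, at 153 and 590 CPM (1.94), and Ppp1r14b, a phosphatase inhibitor, at 88.6 and 340 CPM (1.94). At the lower end Gm15564, an antisense transcript at chr16:35966752-35983230, stood at 275 and 35.9 CPM (-2.94), Phip at 181 and 53.0 CPM (-1.77) and the kinase gene Wnk1 at 190 and 73.3 CPM (-1.37), followed by Ccdc88a, Ddx6, Golga4 and Etnk1 between -1.09 and -1.01. None of 8 B cell programme genes was called (median 0.05, turning to -0.45 without Gm42418, with Cd79a and Fcmr lower), with Cd74, the invariant chain, at 0.70 and Cd79a, of the B cell receptor, at -0.67. None of 15 MHC class I and immunoproteasome genes and none of 13 immediate early genes was called, but without Gm42418 in the denominator Tap1 of the former and Egr1 and Zfp36 of the latter were called lower.

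Markers of other cells were measured in the same barcodes. Of 14 tested neutrophil genes 5 were called lower and 0 higher (median -0.61), against 7.33% and 9.74% of all tested genes. Mpo stood at 501 and 45.2 CPM (-3.47) and Elane at 300 and 24.96 CPM (-3.59), with 40.5% and 40.9% of the control UMIs in 1 cell each. Monocyte or macrophage markers had UMIs in 26.2% and 44.4% of plasma cells and summed to 118 and 148 CPM, against 708 and 1066 CPM in other barcodes, and none of 3 tested members was called; their part in the Ly6c2 difference was not tested. B progenitor markers had UMIs in 17.7% and 37.0% of plasma cells. Erythroid markers had per-cell medians of 1241 and 733 CPM, and 3 of 9 were called lower. Of 12 T or NK cell markers 11 were at 0 in the MYC library. Vpreb3, a gene of B cell precursors, stood at 18.2 and 59.3 CPM (1.70). The part of these RNAs in the differences above was not tested.

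The feature named MYC is listed apart from the mouse gene Myc in the feature table, and the sequence behind it is not given in the sources used here. It had 0 UMIs in control plasma cells, where 0 of 130 cells allows a share of up to 2.31% by 3 counts (2.80% by the exact interval) of cells with a UMI, not of cells expressing it, and 5 UMIs in 5 of 54 cells of the MYC library (9.26%; 3.08% to 20.3%), against 2.69% of other kept barcodes of that library at a median of 7537 UMIs. The mouse gene Myc was found in 7 of 130 and 1 of 54 plasma cells, with 17 and 1 UMIs, and in 8.49% and 7.60% of other barcodes. At this depth cells could not be ordered by the level of the MYC feature. Of 6 tested genes of the MYC network 1 was called, Mga, a MAX partner, at -1.04 (median -0.28), and 2, Mga and Mxd1, both lower, without Gm42418 in the denominator (median -0.77).

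Within each library the IgG and IgM cells were set side by side, a comparison added after the class counts were seen, since IgA had too few cells. In the control (38 against 90 cells) 69 of 2751 tested genes were at least 2-fold higher in IgG cells (2.51%) and 123 lower (4.47%). In the MYC library these were 11 (0.952%) and 42 (3.64%) of 1155. Its 14 IgG cells are under the planned minimum of 20 cells for a class. Ly6c2 was the gene most raised in control IgG cells, at 236 CPM in IgM and 1226 CPM in IgG cells (2.38; 2.16 to 2.60), against 0.88 in the MYC library. Slpi, a secreted protease inhibitor, stood at 1617 and 5947 CPM in the control (1.88) and had 0.86 in the MYC library. There 1 IgG cell stood at 47603 CPM of Slpi, against 8012 CPM over all IgG cells, and the ratio was not computed without it. Grn, progranulin, had 1.38 and 0.54. Lower in IgG cells were Ptpn6, which encodes the phosphatase SHP-1 (-2.20 and -1.92), Ehd4, an endocytic ATPase (-2.18 and -1.39), and Txndc5, at 2906 and 903 CPM in the control (-1.69; -0.67 in the MYC library). Pou2af1 had ratios of -1.51 and -0.02 in the same order, and Stt3b, a catalytic subunit of oligosaccharyltransferase, -1.82 and -0.02. Cells of 1 library are not replicates, and whether these class ratios differ between the libraries was not tested.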

How the data were processed

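Mouse bone marrow cells of 2 libraries, 1 per genotype, were counted with a 3′ droplet kit (v2, per the labels' protocols). The deposited matrices hold raw UMI counts for 32286 features; Cell Ranger 6.0, Seurat and the builds GRCm38 and mm10 are named per the submitters' processing notes, without roles, and barcode calling and annotation are not given in the sources used here. From the authors' counts, plasma cells were picked by the rule in the text and their UMIs summed per library with Python 3.11.15, NumPy 2.4.6, SciPy 1.17.1 and pandas 2.3.3. CPM is per 1000000 UMIs outside immunoglobulin genes and Jchain. Ratios have exact conditional binomial intervals, shares have Clopper-Pearson intervals, and their differences combine these limits by Newcombe's method, all at 95%, for counting error only; UMIs remove most, not all, amplification copies. A gene list median covers members with at least 20 UMIs. Genes named between libraries were the 12 largest and 12 smallest log2 ratios at a mean of at least 100 CPM, an interval excluding 1 and no cell holding over 20% of a library's UMIs, without immunoglobulin, T cell receptor, mitochondrial, haemoglobin, rule and other cell type marker genes; where ribosomal protein genes filled these places, the next genes were named too. Every list gene may be named, the 15 genes highest over other barcodes were taken at 200 CPM or more, and 6 each way between classes. Members and lists were chosen with earlier results of these data known, and the limit of 15%, the scaling without Gm42418, the IgG to IgM comparison and the thinned shares of single genes with data in view. Doublets were not removed: Scrublet in scanpy 1.11.5 called 670 control barcodes (5.06%) and 0 in the MYC library, so its planned use was dropped. The scripts were tested on simulated data. Free RNA was not corrected. Alternatives are given in the closing section.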

Additional observations from a re-analysis of the deposited data

Results flagged for a closer look

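In plasma cells and in all other kept barcodes the log2 ratio between the libraries had opposite signs, each with an interval excluding 0, for 13 of the genes named or called in a list. These differences were not tested. With Gm42418 left out of the denominator of both, 10 of the 13 kept opposite signs with intervals excluding 0, and 3 did not: Herpud1 (-0.12 in plasma cells, -0.24 in other barcodes) and Slamf7 (-0.23 and -1.96) had the same sign, and the plasma cell interval of Irf4 (0.07; -0.22 to 0.35) included 0. Ly6d had 2.92 in plasma cells and -0.77 in other barcodes, Ly6k 2.19 and -1.25, Sel1l 1.09 and -0.21, Slc7a5 1.25 and -0.13, Bst2 1.66 and -0.19, and Zbp1 1.45 and -0.26. Herpud1 had 0.38 and -0.13, Slamf7 0.27 and -1.86, Irf4 0.57 and -2.28, Cd74 0.70 and -1.01, and Vpreb3 1.70 and -3.96. In the other direction, Ctsg had -1.83 and 0.87 and Prtn3 -2.49 and 0.48; both are neutrophil transcripts, 1 control cell held 39.0% and 41.4% of their control UMIs, and in IgM cells, a subset chosen after seeing the data, they had -0.43 (-1.34 to 0.39) and -0.64 (-1.30 to -0.01). In B cells, a small part of the other barcodes taken without those that met the plasma cell rule but for Ms4a1, several ratios had the sign of plasma cells with intervals excluding 0: Ly6d 0.74, Sel1l 0.84, Herpud1 0.70, Cd74 0.36, Ctsg -1.04 and Prtn3 -0.79. Vpreb3 had -0.49 there, and the intervals for Ly6k (0.47), Zbp1 (0.41), Bst2 (0.19), Slc7a5 (0.42), Slamf7 (-0.09) and Irf4 (-0.56) included 0. Other barcodes are a mixture whose makeup differed between the libraries, with B cells at 4.82% and 1.03%, and the part of that makeup in their ratios was not tested.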

How the results depend on the processing

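Under the alternatives a value counted as kept where it lay within the main interval. A gene count was kept where it lay within a set factor of the main count. A value turned where its main interval excluded 0 and its sign changed, and otherwise it moved. Of the main results 197 values were kept, 14 moved and 1, the ER translocation median, turned. The ER folding median changed sign too, from a value whose interval included 0. Over 92 named genes 1128 values were kept, 155 moved and 5 turned. All 5 turned without Gm42418 in the denominator. That setting lowers every ratio alike (median of all genes -0.50), so that a value just above 0 turns by construction. They were Atf4 (-0.14), Dnajc3 (-0.22), Herpud1 (-0.12), Ncl (-0.13) and Slamf7 (-0.23). Creld2, Ddit3 and Ldha, whose intervals included 0, changed sign there as well. Itga4, at -0.16, ranged from -0.66 to 0.44 over its settings, so a kept or moved value can differ in sign. Without Gm42418 in the denominator, a setting chosen after seeing the data, 117 genes were at least 2-fold higher and 907 lower in the MYC library, and list medians were -0.21 for ER folding, -0.21 for ER translocation, 0.00127 for MYC-induced genes, 0.0628 for oxidative phosphorylation and 1.004 for ribosomal proteins. The ribosomal median was 1.66 with mitochondrial UMIs under 5%, 1.35 as a mean over cells and 1.60 without the most frequent light chain V gene, also added later. A minimum of 200 UMIs gave 182 genes higher and 33 lower, and one of 10 UMIs with no filter on cells 668 and 591. With any Ms4a1 count the difference in plasma cell share was -0.855 points. Removing Scrublet doublets as planned, IgA against IgM cells, and IgM with IgA cells weighted were not run (0 doublets called in 1 library; 2 and 3 IgA cells). Removing the 5% highest doublet scores took 2 control plasma cells and 1 of the MYC library. No paired analysis was possible because each group had 1 library. Depth limits low genes: the feature named MYC had 5 UMIs.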
